A study of Mus musculus with 12 samples.

Results

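The response to 1 week of pressure overload was described in left ventricle of mice that carry the T497A form of Prkca, the gene of protein kinase C alpha. The comparison set the 3 libraries labelled T497A TAC against the 3 labelled T497A sham, 6 of the 12 libraries in the series, across 17699 genes that passed a filter on low counts. The other 6 libraries, wild-type sham and wild-type TAC with 3 each, served as a second reference and for the test of whether the response differed between genotypes. All mice had surgery at 10 weeks of age and gave tissue at 11 weeks. The constriction was set with a 27-gauge needle, and sham groups had the operation alone. In T497A a threonine of the kinase is replaced by alanine in the germline gene, so every cell type of these ventricles carries it. The labels give neither the sex of the mice nor a strain, do not say whether the allele is on 1 or both copies, and do not say that each library is its own animal. P-values therefore measure the spread between these libraries, which may be technical in part. By the labels the tissue is left ventricle and the cell type cardiomyocyte. All 10 markers of ventricular muscle were present in each of the 6 libraries, from 4.31 normalised counts per 1000000 (CPM) for Hey2 to 33322 for Myh6, but so were collagen, endothelial and macrophage transcripts, and the values are treated as those of ventricular tissue. In such bulk tissue, fewer cells of a type and less RNA per cell cannot be told apart.

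Transverse aortic constriction (TAC) narrows the aorta, so the left ventricle must eject against a raised pressure. Its muscle cells enlarge and return to genes of the fetal heart, among them the natriuretic peptides, which are secreted hormones that lower blood pressure and load. Fibroblasts divide and lay down collagen, and the fuel use of the muscle shifts away from fatty acids. Protein kinase C alpha, which is activated by calcium and lipid downstream of Gq-coupled receptors, dampens contractility in the heart. It becomes competent for activation only after phosphorylation of residues that include this threonine of its activation loop.

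The T497A sham libraries differed from the other groups in sex-linked transcripts. Xist, whose RNA coats and silences 1 X chromosome in females, stood at 215, 159.9 and 176 CPM in T497A sham 1, 2 and 3, but at 0.683, 0.385 and 0.315 CPM in T497A TAC. Ddx3y, a helicase gene of the Y chromosome, did the reverse, with 0.261, 0.396 and 0.0999 CPM after sham and 90.1, 95.8 and 92.1 CPM after TAC. Both wild-type groups resembled T497A TAC, with Ddx3y means of 105 CPM after sham and 80.1 CPM after TAC. All 4 Y-linked genes tested were higher and 7 of 10 X-linked genes that escape inactivation were lower in T497A TAC than in T497A sham, for example Eif2s3x (-0.70 ± 0.08 log2 units) and Kdm6a (-0.79 ± 0.10). Against wild-type sham none of these 14 genes was called. The effect of TAC and this difference between the groups cannot be told apart within T497A, so values against wild-type sham, which differ from T497A TAC in genotype and surgery together, are given beside those against T497A sham. Both comparisons share the T497A TAC libraries.

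In all, 2290 genes rose and 2025 fell from T497A sham to T497A TAC (12.9% and 11.4% of those tested) at an adjusted p under 0.05. Counts of list members below are to be read beside these 2 shares. Adjusted p-values are Benjamini-Hochberg values over all genes from edgeR's quasi-likelihood test, and a gene past this threshold is said to have risen or fallen. Log2 fold changes carry an approximate standard error, taken as the absolute change divided by the square root of that test's F statistic. Without T497A TAC 2 the total of 4315 was 2840, with 1251 falls. The median change of all genes was 0.00 log2 units. Lack of overlap between the sham and TAC libraries was common. Of the 17699 genes, 3694 were higher in every TAC library than in any sham library and 3500 were lower. Changes of at least 4-fold numbered 213 up and 168 down (1.20% and 0.949%). Against wild-type sham, 1083 genes were higher and 690 lower in T497A TAC (6.12% and 3.90%), and 60 and 6 of them differed at least 4-fold (0.339% and 0.0339%). The sham groups themselves differed in 529 genes higher and 495 lower in T497A (2.99% and 2.80%). In wild type, TAC raised 4576 genes and lowered 4255 (25.9% and 24%). The change with TAC was more positive in T497A than in wild type for 2700 genes and more negative for 2518 (15.3% and 14.2%, the interaction of genotype and surgery). This interaction uses the T497A sham libraries too, so it cannot be told apart from their difference in sex-linked transcripts either. At some autosomal transcripts the wild-type mean moved with TAC toward the T497A sham level. Gpr179 went from 0.138 to 4.58 CPM in wild type, where T497A sham averaged 10.3 CPM. AA465934 went from 1.27 to 16.96 CPM (T497A sham 32.7) and 2610507I01Rik from 6.38 to 1.17 CPM (T497A sham 0.222). Others, such as Myl7 (48.95 to 32.5 CPM, T497A sham 133.1), did not. The part of this in the wild-type and interaction counts was not tested. Scaling mattered for comparisons with wild type. By library totals, in place of the TMM factors used here, the median of all genes was 0.36 log2 units for TAC in wild type and -0.31 for the interaction, with 8466 genes higher and 1891 lower in wild type and an interaction split of 1175 and 5694. Against wild-type sham that scaling gave 1597 higher and 335 lower, and against T497A sham 2483 and 1692. Library totals were 63024143 to 72594085 counts in the 6 T497A libraries. Mitochondrial transcripts took 15.97 to 17.26% of counts after sham and 19.22 to 19.81% after TAC.

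**Figure D1:**
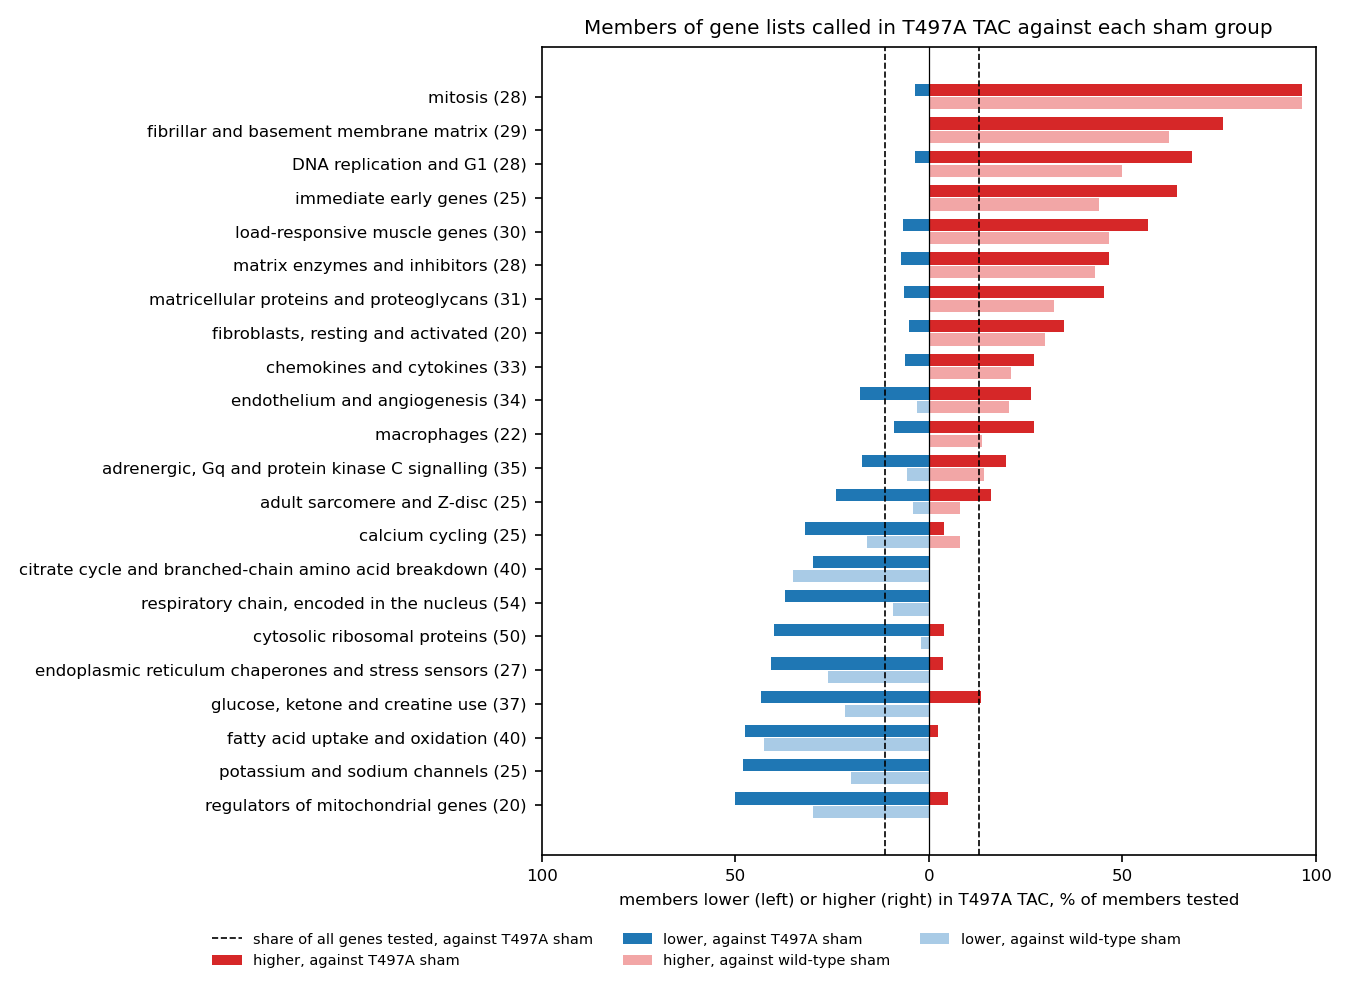
Bars show, for 22 gene lists with the number of members tested in brackets, the percentage of members lower (left) or higher (right) in T497A TAC, against T497A sham (dark) and wild-type sham (pale), and dashed lines give the shares of all genes called against T497A sham, 11.4% lower and 12.9% higher. Mitosis and matrix lists extend to the right against both references, whereas the bars for ribosomal proteins and the respiratory chain shrink against wild-type sham.

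Of 30 genes that respond to mechanical load in heart muscle 17 rose and 2 fell, with a median change of 0.50 log2 units. Against wild-type sham 14 were higher and 0 lower. Nppb, the precursor of the ventricular natriuretic peptide, stood at 33.4, 45.7 and 28.9 CPM after sham and at 305, 396 and 425 CPM after TAC. Every TAC library was above every sham library, and the log2 fold change was 3.38 ± 0.26 (adjusted p = 2.6e-05). Wild-type sham lay between the groups at 162, 90.4 and 124 CPM, so the rise was smaller from there, at 1.58, adjusted p = 0.0048. Ankrd1, a stretch-sensitive cofactor of the sarcomere and nucleus, went from 757, 936 and 907 to 4295, 4519 and 4436 CPM, the 3 libraries of each group lying close together (2.35 ± 0.10, adjusted p = 4.9e-09). Against wild-type sham Ankrd1 differed by 1.49, adjusted p = 7.8e-06.

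Acta1, the skeletal actin of the fetal heart, went from 115, 277 and 352 to 1514, 1696 and 1733 CPM (2.73 ± 0.34, adjusted p = 0.0005). The TAC libraries were near each other, while the sham libraries spread 3-fold. Myh7, the slow fetal myosin, stood at 755, 304 and 181 CPM after sham and 1518, 1171 and 724 CPM after TAC. T497A sham 1 overlapped T497A TAC 3 for Myh7, and the change was not called (1.46 ± 0.48, adjusted p = 0.058), although it was without that sham library (2.23, adjusted p = 0.0021) and against wild-type sham (2.37, adjusted p = 0.021). Nppa, which encodes the atrial peptide, was 124, 103 and 241 CPM after sham and 382, 478 and 206 CPM after TAC, with TAC 3 under sham 3 (1.19 ± 0.36, adjusted p = 0.043). That call did not hold for every set of libraries: Nppa was not called without T497A sham 1 or 2 or TAC 1 or 2 (adjusted p = 0.11 to 0.14). In wild type Nppa reached a mean of 2596 CPM after TAC, and the interaction was -3.69, adjusted p = 0.00099.

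Acta1 is a textbook target of serum response factor, so its upstream sequence is shown as the example of a load-responsive promoter. The 100 bases before the start, from RefSeq on GRCm38.p6 (chr8:123894776-123894875, minus strand), hold a CArG box, the binding sequence of that factor, in capitals.
Acta1: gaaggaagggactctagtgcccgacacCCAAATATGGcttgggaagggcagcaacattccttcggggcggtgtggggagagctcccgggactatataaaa
The box begins 73 bases before the start. Searched in the 300 bases around each start, on either strand, it was found in 5 of 34 promoters of load-responsive genes (14.7%), in 6 of 29 of immediate early genes (20.7%) and in 0 of 26 of mitosis genes, against 1.63% of all 32851 promoters of that length. Some genes have several promoters, and these matches belonged to 4 of 25 load-responsive genes and 3 of 22 immediate early genes. A match gives the letters of a window, not a bound site.

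Other load-responsive members moved less, with narrow groups. Ankrd23, a relative of Ankrd1 in the titin complex, rose by 1.32 ± 0.16, and the actin-binding protein of intercalated discs Xirp2 by 0.86 ± 0.09. The fast-type myosin-binding protein Mybpc2 rose by 1.27 ± 0.20. Gdf15, a circulating stress cytokine, went from 0.9798, 1.16 and 1.26 to 2.37, 3.08 and 2.69 CPM. Rcan1, a feedback inhibitor induced by calcineurin, went from 61.1, 55.1 and 61.8 to 97.2, 94.7 and 90.4 CPM (0.67 ± 0.11). None of these 5 genes overlapped between the groups, which held for 3694 of all 17699 genes in this direction. Each was called against wild-type sham too, Ankrd23 by 0.90, Xirp2 by 0.56, Mybpc2 by 1.30, Gdf15 by 1.64 and Rcan1 by 0.49. Nrap, which anchors actin at the intercalated disc, rose by 0.51 ± 0.07, and the growth factor Tgfb2 by 0.84 ± 0.12. The 2 falls were the atrial light chain Myl4, described with the atrial genes, and the LIM protein Fhl1 (-0.40, adjusted p = 0.048). Fhl1 was not called without T497A sham 1 or 3 or TAC 1, 2 or 3 (adjusted p = 0.062 to 0.17).

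**Figure D2:**
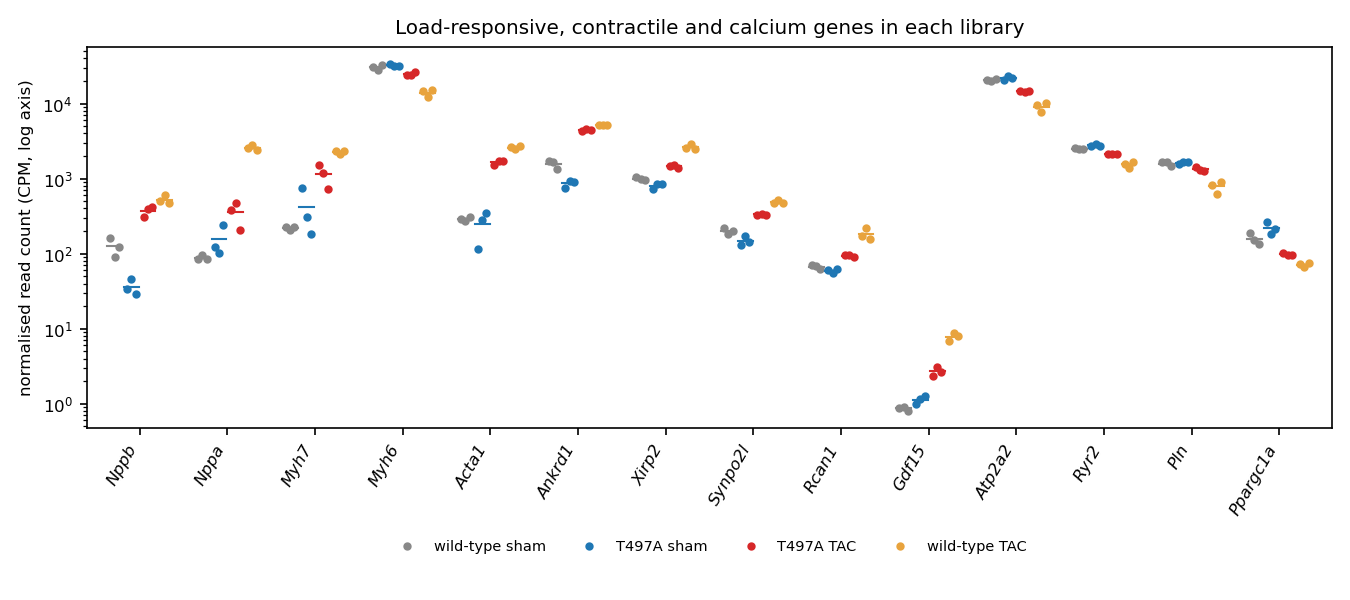
Points are libraries and short lines group means of normalised read counts (CPM, log axis) for 14 genes in wild-type sham (grey), T497A sham (blue), T497A TAC (red) and wild-type TAC (orange). For Nppb and Ankrd1 the T497A sham points are the lowest of the 4 groups, and for Nppa and Myh7 the T497A TAC points spread toward the sham points.

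The machinery around the natriuretic peptides moved the other way at 3 points. Corin, the membrane protease that activates the atrial peptide, went from 502, 410.0 and 407 CPM after sham to 246, 227 and 221 CPM after TAC (-0.92 ± 0.11, adjusted p = 5.7e-05). All TAC libraries were below all sham libraries. Furin, which cleaves the ventricular peptide precursor, fell by 0.53 log2 units (SE 0.07), and Mme, the gene of neprilysin that degrades the peptides, changed by -1.11 ± 0.19. Prkg1, the kinase downstream of their receptors, rose (0.42 ± 0.09). Of the 9 genes of receptors and processing, 1 rose and 3 fell. Against wild-type sham Corin stayed lower (-0.48, adjusted p = 0.014) and Prkg1 higher (0.35, adjusted p = 0.022), whereas Mme (-0.24, adjusted p = 0.47) and Furin (-0.24, adjusted p = 0.053) were not called.

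Genes of cell division made up the widest rise. Of 28 genes of mitosis 27 rose and 1 fell, with a median of 2.38 log2 units against 0.00 for all genes, and 27 were higher and 0 lower against wild-type sham (median 1.70). Cdk1, the kinase that drives entry into mitosis, stood at 0.914, 0.716 and 0.732 CPM after sham and 4.402, 6.09 and 7.24 CPM after TAC (2.91 ± 0.22, adjusted p = 9.3e-07). Its activating cyclins were also higher in every TAC library than in any sham library, Ccnb1 with 0.425, 0.305 and 0.0999 CPM against 1.46, 2.43 and 2.43 CPM (2.92 ± 0.40) and Ccna2 with 1.404, 0.9901 and 0.999 against 5.798, 8.86 and 10.4 CPM (2.88 ± 0.25). The proliferation antigen Mki67 went from 9.86, 5.73 and 3.49 to 26.4, 32.02 and 41.2 CPM, the topoisomerase Top2a from 5.42, 3.76 and 2.45 to 14.1, 23.5 and 27.8 CPM, and the Aurora kinase Aurkb from 0.653, 0.548 and 0.466 to 2.004, 3.4003 and 4.64 CPM. Cdc20, which triggers anaphase, rose by 2.11 ± 0.27, and the kinase Plk1 by 2.16 ± 0.33. Genes of cytokinesis, the final cleavage of the cell, rose as well, with the midzone protein Prc1 at 2.80 ± 0.24, the GTPase regulator Racgap1 at 2.18 ± 0.19 and the contractile ring scaffold Anln at 2.41 ± 0.20. Levels stayed low in absolute terms: Mki67, at 33.2 CPM, was the most abundant riser named here.

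The exception was Cenpf, a large kinetochore and microtubule protein, which was the most abundant gene of the list and fell from 225, 139.5 and 88.6 to 64.7, 48.8 and 42.1 CPM (-1.54 ± 0.32, adjusted p = 0.008). It was also lower after TAC in wild type (-1.53), and T497A TAC was not called apart from wild-type sham (-0.60, adjusted p = 0.28). For no gene of the mitosis list did the response to TAC differ between the genotypes by the interaction test, with a median interaction of -0.07 log2 units (1 called, and a median of -0.38, with scaling by library totals). That leaves room for differences in single genes: for Cdk1 the interaction was -0.17, adjusted p = 0.72 with a standard error of 0.30.

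Upstream sequences of 4 of these genes are printed because mitotic genes share a promoter element, the cell cycle genes homology region (CHR), at which the DREAM and MuvB complexes act. Each is 100 bases before the start of the gene in RefSeq on GRCm38.p6, 5′ to 3′ on the strand of the gene, with the element in capitals, searched as the letters TTTGAA on either strand and also as the palindromic letters TTTAAA. They come from chr10:69352913-69353012 (minus strand) for Cdk1, chr13:100786487-100786586 (minus) for Ccnb1, chr4:118437344-118437443 (minus) for Cdc20 and chr7:122159335-122159434 (plus) for Plk1.
Cdk1: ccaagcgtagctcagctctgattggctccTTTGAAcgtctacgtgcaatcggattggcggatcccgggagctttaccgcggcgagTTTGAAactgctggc
Ccnb1: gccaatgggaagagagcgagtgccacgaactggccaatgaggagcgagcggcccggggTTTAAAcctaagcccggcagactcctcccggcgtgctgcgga
Cdc20: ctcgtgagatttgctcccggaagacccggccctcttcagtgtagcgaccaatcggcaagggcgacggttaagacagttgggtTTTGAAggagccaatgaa
Plk1: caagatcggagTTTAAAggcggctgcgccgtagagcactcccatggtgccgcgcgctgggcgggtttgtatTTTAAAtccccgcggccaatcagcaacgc
The element starts 71 and 15 bases before the start in Cdk1, 42 in Ccnb1, 18 in Cdc20 and 89 and 29 in Plk1. Over 300 bases around the start, 23 of 26 promoters of the 24 mitosis genes matched held it on either strand (88.5%), against 27.6% of the 32851 promoters of the same length searched and 3 of 29 promoters of immediate early genes. The CCAAT box, searched as those 5 letters on either strand, was in the same number of mitosis promoters, 23 of 26, against 37.4% of all. These are matches of letters and say nothing of which proteins were bound.

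**Figure D3:**
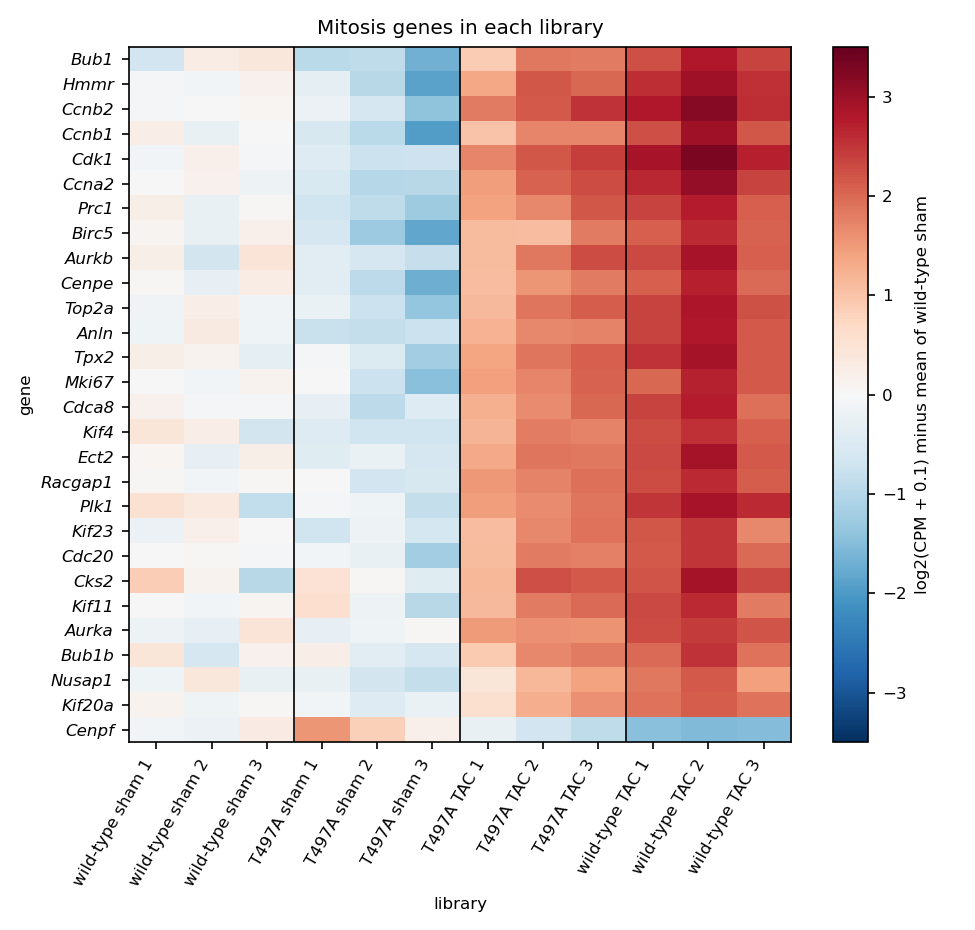
Each row is a mitosis gene and each column a library, with colour giving log2(CPM + 0.1) minus the mean of wild-type sham. The T497A TAC columns are red for 27 of 28 genes and palest in T497A TAC 1, the T497A sham columns are mostly blue, and Cenpf in the bottom row runs opposite to the others.

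DNA replication and the entry into the cycle rose too, with 19 of 28 genes higher, 1 lower and a median of 0.84. Against wild-type sham 14 were higher and 0 lower. The transcription factor E2f1, which switches on S phase genes, went from 1.37, 1.43 and 1.75 to 3.73, 4.26 and 5.74 CPM (1.59 ± 0.18), the helicase subunit Mcm2 from 6.48, 7.98 and 7.41 to 12.2, 16.6 and 18.1 CPM (1.10 ± 0.14), and the origin licensing factor Cdc6 rose by 1.70 ± 0.34. Ccnd1, the cyclin that links growth factors to the cycle, went from 19.02, 41.2 and 19.7 to 83.97, 96.3 and 107 CPM (1.84 ± 0.27, adjusted p = 0.0014). Wild-type sham stood at 63.4 CPM for Ccnd1, near the TAC level, and the difference from there was not called (0.59, adjusted p = 0.2). Ccnd2 rose by 0.92 ± 0.15 and was likewise not called against wild-type sham (0.50, adjusted p = 0.062). The fall was in the cycle inhibitor Cdkn1a, from 64.4, 25.8 and 42.4 to 14.997, 23.8 and 25.3 CPM (-1.05 ± 0.31, adjusted p = 0.04). Cdkn1a was not called without T497A sham 1 or 3 or TAC 1, 2 or 3 (adjusted p = 0.064 to 0.12), moved to -0.67 without T497A sham 1, and had the opposite sign against wild-type sham (0.81, adjusted p = 0.16).

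Immediate early genes, which cells transcribe within minutes of a stimulus and which tissue handling can raise as well, were higher for 16 of 25 and lower for 0 (median 0.81). Against wild-type sham 11 were higher and 0 lower. Egr1 went from 9.37, 11.5 and 11.8 to 40.1, 40.5 and 44.3 CPM (1.93 ± 0.11, adjusted p = 1.8e-07), Jun from 56.8, 66.9 and 68.5 to 144, 145 and 163 CPM (1.23 ± 0.08) and Btg2, an antiproliferative factor, from 29.3, 32.3 and 31.8 to 113, 118 and 133 CPM (1.96 ± 0.16). In these 3 genes the replicates lay close together. Egr3 and Atf3 spread more within TAC, with 6.45, 8.89 and 13.2 CPM for Egr3 and 18.9, 33.3 and 52.9 CPM for Atf3, yet stayed above all sham libraries (0.931, 0.9901 and 1.17 and 4.25, 3.49 and 4.73 CPM). Egr2 rose by 3.03 ± 0.46. For Btg2 and Jun the rise was larger than in wild type (interaction 1.56, adjusted p = 0.00035 and 0.76, adjusted p = 0.00026). Fos, at 2.79, 2.56 and 3.26 CPM after sham and 8.29, 6.71 and 6.495 CPM after TAC, rose (1.32 ± 0.31), but wild-type sham stood at 7.08 CPM and T497A TAC was not called apart from it (0.02, adjusted p = 0.98). Time to freezing and other handling values were not among the labels, and their part in these changes was not tested.

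Inflammatory signals formed a smaller, low-level set. Of 33 chemokines and cytokines 9 rose and 2 fell, against 7 and 0 with wild-type sham as the reference. Ccl2, which draws monocytes, went from 0.898, 0.609 and 0.882 to 2.19, 4.38 and 5.38 CPM (2.32 ± 0.37), its relative Ccl7 from 0.359, 0.853 and 0.499 to 2.22, 2.02 and 2.66 CPM (2.002 ± 0.31) and the neutrophil chemokine Cxcl1 rose by 1.53 ± 0.30. Tnf was close to the limit of detection after sham, at 0.0327, 0.0305 and 0.0333 CPM, and reached 0.607, 0.60005 and 0.486 CPM (4.06 ± 0.67). The interferon-induced Cxcl10 rose by 2.53 ± 0.62. Interleukin gene Il1b rose by 3.15 ± 0.69 but not against wild-type sham (0.77, adjusted p = 0.45). The falls were in Ccl21a (-0.58, adjusted p = 0.023), which was not called without T497A sham 2 or 3 or TAC 2 or 3 (adjusted p = 0.053 to 0.083), and in Ccl6 (-1.04, adjusted p = 0.035), which was not called without T497A sham 1 or 3 or TAC 1 or 2 (adjusted p = 0.1 to 0.12). Of 22 macrophage markers 6 rose and 2 fell, their summed level running from 326 to 396 CPM after sham and 368 to 397 CPM after TAC. Risers included the lipid receptor Trem2 (1.52 ± 0.25) and the monocyte receptors Ccr2 (1.22 ± 0.25) and Cx3cr1 (2.06 ± 0.45). The 2 that fell mark resident macrophages: Lyve1 went from 43.3, 36.1 and 44.4 to 14.4, 17.5 and 23.2 CPM (-1.17 ± 0.24) and Cd163 changed by -0.74 ± 0.17. Other members that mark such cells, Timd4, Folr2 and Mrc1, were not among the falls. Against wild-type sham 3 macrophage markers were higher and 0 lower. Trem2 was among those higher (1.26, adjusted p = 0.0063), whereas Ccr2, Cx3cr1, Lyve1 and Cd163 were not called (0.85, 0.84, -0.22 and -0.31).

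Extracellular matrix rose broadly and by less than in wild type. Of 29 fibrillar and basement membrane genes 22 rose and 0 fell (median 0.98), and 18 were higher and 0 lower against wild-type sham (median 0.93). In wild type all 29 rose (median 2.43), and for 28 the change was more negative in T497A by the interaction test, also with scaling by library totals. Col3a1, a fibrillar collagen of scar and vessel wall, went from 141, 274 and 182 to 909, 964 and 645 CPM in T497A (2.08 ± 0.32, adjusted p = 0.0016). Its wild-type TAC mean was 4239 CPM, and the interaction was -1.62, adjusted p = 0.021. Col1a1 stood at 98.5, 152 and 138 CPM after sham and 417, 449 and 244 CPM after TAC, with TAC 3 the lowest of its group (1.51 ± 0.36, adjusted p = 0.017). Col1a1 was not called without T497A sham 1 or TAC 1 or 2 (adjusted p = 0.052 to 0.06), and against wild-type sham it was not called either (1.23, adjusted p = 0.067).

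Replicates lay closer together for some basement membrane chains. Col4a1, the main collagen of basement membranes, went from 379, 453 and 401 to 917, 1132 and 1116 CPM (1.36 ± 0.09, adjusted p = 5e-07), and its partner Col4a2 rose by 1.16 ± 0.08. The laminin chain Lamc1 rose by 0.56 ± 0.07 and the proteoglycan perlecan, Hspg2, by 0.37 ± 0.09. Col5a3 stands out in this list: it went from 13.8, 16.2 and 13.4 to 47.5, 56.2 and 52.9 CPM (1.85 ± 0.10) and is the 1 member whose change was not called as different from wild type (interaction 0.14, adjusted p = 0.49). Col15a1, which bridges basement membrane and fibrils, rose by 1.41 ± 0.14 and Col6a1 by 1.05 ± 0.13. The elastic fibre genes Fbn1 (40.4, 61.8 and 43.5 to 208, 239 and 197 CPM) and Eln (27.1, 41.5 and 46.05 to 169, 165 and 90.6 CPM) rose by 2.14 ± 0.20 and 1.89 ± 0.30. T497A TAC 3 was the lowest TAC library for both.

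Among 31 matricellular proteins and proteoglycans, which tune how cells read the matrix, 14 rose and 2 fell (10 and 0 against wild-type sham). The count of rises was 9, 9 and 8 when T497A sham 1, TAC 1 and TAC 2 were left out in turn. Postn, made by activated fibroblasts, went from 38.2, 63.1 and 62.6 to 259, 289.9 and 117 CPM (2.02 ± 0.42, adjusted p = 0.0086), against a wild-type TAC mean of 1865 CPM (interaction -3.04, adjusted p = 0.0049). Sparc, which binds collagen, rose by 1.06 ± 0.15 and thrombospondin 1, Thbs1, by 1.41 ± 0.30. Cthrc1, a secreted marker of activated fibroblasts, differed most between TAC libraries, at 4.37, 5.08 and 0.715 CPM after 0.131, 0.3503 and 0.333 CPM in sham (3.62 ± 0.995, adjusted p = 0.031). Cthrc1 was not called without T497A sham 1, 2 or 3 or TAC 1 or 2 (adjusted p = 0.08 to 0.1). The matrix growth factor Ccn2 was not called (171, 79.6 and 122 and 168, 174 and 151 CPM; 0.41 ± 0.30, adjusted p = 0.38). T497A sham 1 was as high as the TAC group for Ccn2, and the estimate was 0.71 without it and 0.17 without T497A sham 2. Against wild-type sham Ccn2 was higher (1.44, adjusted p = 0.022). The elastic fibre protein Fbln1 fell (-1.03 ± 0.17), as did Cilp2 (-1.95, adjusted p = 0.034), which was not called without T497A sham 3 or TAC 2 or 3 (adjusted p = 0.11). Neither was called against wild-type sham (-0.29 for Fbln1 and -1.001 for Cilp2).

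Matrix enzymes rose for 13 of 28 and fell for 2, or 12 and 0 against wild-type sham. Adamts4, a protease of proteoglycans, went from 0.163, 0.244 and 0.233 to 2.26, 2.05 and 2.42 CPM (3.38 ± 0.35), and the related Adamts1 from 40.2, 45.4 and 44.8 to 96.8, 117 and 134 CPM (1.41 ± 0.12). The collagen crosslinker Loxl2 rose by 1.65 ± 0.21 and the membrane collagenase Mmp14 by 1.67 ± 0.22. The inhibitor Timp3 fell from 352, 338 and 365 to 223, 234 and 238 CPM (-0.60 ± 0.07), though wild-type sham stood at 252 CPM (-0.12, adjusted p = 0.31). The other fall was in the collagen hydroxylase P4ha2 (-0.45, adjusted p = 0.03), which was not called without T497A sham 2 or 3 or TAC 1 or 2 (adjusted p = 0.059 to 0.11).

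Of 20 fibroblast markers 7 rose and 1 fell, and 4 rose without T497A sham 1 and 3 without T497A TAC 2. Their summed level overlapped, at 2320 to 3090 CPM after sham and 2020 to 2580 CPM after TAC. Meox1, a transcription factor of activated fibroblasts, went from 3.76, 5.79 and 6.46 to 27.5, 29.96 and 32.5 CPM (2.49 ± 0.31) and was higher than in wild-type sham (1.12, adjusted p = 0.04). The fall was in Gsn, an actin-severing protein abundant in resting fibroblasts (-0.69 ± 0.14), which was not called against wild-type sham (-0.38, adjusted p = 0.11). In TGF-beta and BMP signalling 6 of 28 rose and 5 fell. Tgfb1 went from 20.5, 22.04 and 23.96 to 39.8, 40.5 and 39.3 CPM (0.85 ± 0.08, with 0.53, adjusted p = 0.0015 against wild-type sham), the secreted antagonist Fstl1 rose by 1.29 ± 0.20, and Bmp6 fell (-0.82 ± 0.12). Bmp4 (-0.79 ± 0.16) and the coreceptor Tgfbr3 (-0.56 ± 0.11) fell too. Mstn, the muscle growth inhibitor myostatin (-2.02), was not called without T497A sham 2 or TAC 1 (adjusted p = 0.083 to 0.094) and stood at -3.03 without T497A TAC 2. The inhibitory Smad6 (-0.60) was not called without T497A sham 3 or TAC 1, 2 or 3 (adjusted p = 0.054 to 0.078) and stood at -0.35 without T497A sham 3. Against wild-type sham 9 of these genes were higher and 0 lower, with no call for Bmp6 (-0.27, adjusted p = 0.19), Bmp4 (-0.34, adjusted p = 0.2) or Tgfbr3 (-0.15, adjusted p = 0.41). Of 20 genes of insulin-like growth factor signalling 3 rose and 3 fell (2 and 1 against wild-type sham), near the shares of all genes, 12.9% and 11.4%. Igf1 rose by 0.98 ± 0.21 and the vascular binding protein Igfbp7 by 0.78 ± 0.10. Igfbp2 had the largest rise of the list, from 0.09798, 0.0305 and 0.0666 to 3.98, 3.57 and 0.572 CPM (5.35 ± 0.80), with T497A TAC 3 well under the other 2 TAC libraries. The falls were in the insulin receptor substrate Irs1 (-0.90 ± 0.17), the ubiquitin ligase Fbxo32 (-0.63 ± 0.15) and the transcription factor that drives Fbxo32 in wasting muscle, Foxo3, from 307, 241 and 216 to 145, 143 and 150.2 CPM (-0.80 ± 0.10). Igf1 (0.62, adjusted p = 0.089), Irs1 (-0.51, adjusted p = 0.09) and Fbxo32 (-0.40, adjusted p = 0.12) were not called against wild-type sham.

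Vessel genes split. Of 34 genes of endothelium and angiogenesis 9 rose and 6 fell (7 and 1 against wild-type sham), and 3 fell without T497A sham 3, TAC 1 or TAC 2. Apln, the peptide that endothelial tip cells secrete, went from 9.504, 9.35 and 7.76 to 26.1, 31.2 and 35.4 CPM (1.80 ± 0.13, adjusted p = 1e-06), and its receptor Aplnr from 7.32, 19.98 and 11.4 to 68.1, 63.5 and 54.97 CPM (2.27 ± 0.37). In wild type Apln was not called (0.04), and the interaction was 1.76, adjusted p = 1.8e-05. The wild-type sham mean was 19.3 CPM for Apln, above T497A sham, and 38.1 CPM for Aplnr, from which T497A TAC was not called apart (0.71, adjusted p = 0.25). Sele, the adhesion molecule of activated endothelium, went from 0.653, 0.792 and 0.832 to 4.098, 3.63 and 4.18 CPM (2.38 ± 0.20). Bcl6b, an endothelial transcription factor, went from 7.43, 12.4 and 9.24 to 50.1, 49.9 and 50.2 CPM (2.37 ± 0.15). Junction genes rose by smaller steps, Cdh5 by 0.72 ± 0.08 and Cldn5 by 0.84 ± 0.10, as did the receptor Tie1 (0.61 ± 0.08). Of the 2 main receptors for VEGF, Kdr rose (0.54 ± 0.12) and Flt1 fell (-0.64 ± 0.09). Neither was called against wild-type sham, at 0.01 and -0.18. The vessel-stabilising ligand Angpt1 fell against both references (-0.89 ± 0.13 and -0.78, adjusted p = 0.004). Of 18 pericyte and smooth muscle genes 5 rose and 0 fell, and against wild-type sham none was called. They were Colec11 (1.06 ± 0.22), Cspg4 (0.58 ± 0.09), Notch3 (0.42 ± 0.06), Pdgfrb (0.44 ± 0.07) and Steap4 (0.38 ± 0.11), of which Steap4 was not called without T497A sham 2 or 3 or TAC 2 or 3 (adjusted p = 0.053 to 0.071).

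Of 40 genes of fatty acid use 19 fell and 1 rose (median -0.25), and 17 were lower and 0 higher against wild-type sham (median -0.33). The count of falls was 11, 9, 6 and 9 without T497A sham 2, sham 3, TAC 2 and TAC 3. Ech1, an auxiliary enzyme of beta-oxidation, went from 1181, 1364 and 1448 to 1045, 895 and 913 CPM (-0.49 ± 0.10). Etfb, the electron carrier that receives its electrons, went from 83.5, 85.7 and 85.1 to 56.4, 55.7 and 58.8 CPM (-0.57 ± 0.09), and Plin5, which holds lipid droplets at mitochondria, from 150.5, 142 and 130.2 to 95.05, 82.5 and 81.7 CPM (-0.70 ± 0.12). None of these overlapped between the groups, as for 3500 of all 17699 genes in this direction, and all were lower than in wild-type sham (-0.62, -0.45 and -0.52). The gate of mitochondrial fatty acid import, Cpt1b, stood at 20.97, 20.7 and 18.96 CPM after sham and 17.3, 20.2 and 20.1 CPM after TAC and was not called (-0.07 ± 0.12, adjusted p = 0.72). It fell in wild type (-1.07), with an interaction of 0.997, adjusted p = 0.00069. For 34 of the 40 genes the interaction was called with a less negative change in T497A (30 with scaling by library totals).

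Of 20 transcription factors and coactivators above these genes 10 fell and 1 rose (median -0.22), or 6 and 0 against wild-type sham. Ppargc1a, the coactivator that drives mitochondrial gene expression, went from 267, 184 and 214 to 103, 96.4 and 96.8 CPM (-1.17 ± 0.14, adjusted p = 0.00014). Klf15, a factor for lipid and amino acid use, went from 129, 102 and 114 to 40.9, 39.2 and 43.1 CPM (-1.48 ± 0.10, adjusted p = 5e-07). Esrra (-0.46 ± 0.08), Esrrb (-0.69 ± 0.10) and Lpin1 (-0.58 ± 0.05) fell as well, and each of these 5 was lower than in wild-type sham, Ppargc1a by -0.69, Klf15 by -0.64, Esrra by -0.35, Esrrb by -0.36 and Lpin1 by -0.47. Ppara, the fatty acid sensor, fell (-0.71 ± 0.11) but was not called against wild-type sham (-0.25, adjusted p = 0.2). The 1 rise was in Ppargc1b (0.31, adjusted p = 0.018), which was not called without T497A sham 1 or 2 or TAC 1 (adjusted p = 0.051 to 0.085).

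Of 54 nuclear genes of the respiratory chain 20 fell and 0 rose (median -0.22). That count depended on single libraries, with 10, 8, 9, 8 and 12 without T497A sham 2, sham 3, TAC 1, TAC 2 and TAC 3, and against wild-type sham it was 5. Sdhc, a membrane anchor of complex II, went from 601, 624 and 682 to 465, 433 and 448 CPM (-0.50 ± 0.08), and Cox7a1, the muscle form of a complex IV subunit, from 649, 658 and 753 to 477, 474 and 505 CPM (-0.50 ± 0.09). Cytochrome c, Cycs, fell by 0.39 log2 units and the complex I subunit Ndufa13 by 0.34. These 4 and the complex I subunit Ndufc2 made up the 5 called against wild-type sham. Ndufc2 (-0.25) was not called without T497A sham 2 or 3 or TAC 1, 2 or 3 (adjusted p = 0.052 to 0.082). None of the 13 transcripts of the mitochondrial genome was called (median 0.31). Of 40 genes of the citrate cycle and of branched-chain amino acid catabolism 12 fell and 0 rose, or 14 and 0 against wild-type sham, for example Idh3a (-0.46 ± 0.08). In wild type all 40 fell, and the interaction was called for 39 (33 with scaling by library totals).

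Of 37 genes of glucose, ketone and creatine use 16 fell and 5 rose, or 8 and 0 against wild-type sham, and 3 rose without T497A sham 1 or TAC 2. The insulin-sensitive glucose carrier Slc2a4 went from 538, 549 and 549.7 to 414, 386 and 416 CPM (-0.43 ± 0.09), and hexokinase Hk2, which traps the glucose, from 511, 535 and 578 to 375, 392 and 399.8 CPM (-0.48 ± 0.07). Nampt, the rate-limiting enzyme of NAD salvage, went from 358, 320.0 and 298 to 244, 218 and 203 CPM (-0.55 ± 0.08). Hk2 and Nampt were also lower than in wild-type sham (-0.37 and -0.36), and Slc2a4 was not called (-0.28, adjusted p = 0.056). The rises were in 2 enzymes of nicotinamide use, Nmrk2 (0.77) and Nnmt (0.65), and in Eno1 (0.37 ± 0.10, or 0.24 without T497A sham 3), Ckb and Gapdh. Nmrk2 was not called without T497A sham 1 or 2 or TAC 1 or 2 (adjusted p = 0.084 to 0.12), and Nnmt was not called without T497A sham 1 or 3 or TAC 2 or 3 (adjusted p = 0.06 to 0.13). Brain-type creatine kinase Ckb rose by 0.41 ± 0.06 and the glycolytic Gapdh by 0.35 ± 0.09. Both had a wild-type sham level near the TAC level (36.1 and 1168 CPM) and were not called from there, nor was Eno1 (0.02, adjusted p = 0.93). Among the other falls of metabolic genes, Pink1, the kinase that marks damaged mitochondria, went from 975, 936 and 1008 to 659, 581 and 563 CPM (-0.69 ± 0.08). Bnip3, a mitophagy receptor, changed by -0.85 ± 0.10. Each was lower than in wild-type sham (-0.41, adjusted p = 0.0057 and -0.36, adjusted p = 0.04).

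Of 25 genes of calcium cycling 8 fell and 1 rose (4 and 2 against wild-type sham). There were 5 falls without T497A TAC 2 or TAC 3, and 3 rises without T497A sham 2 or TAC 1. Atp2a2, the pump that refills the sarcoplasmic reticulum, went from 20476, 23013 and 21886 to 14666, 14142 and 14624 CPM (-0.59 ± 0.10, adjusted p = 0.00073). The release channel Ryr2 went from 2721, 2920.4 and 2725 to 2145, 2119.7 and 2138 CPM (-0.39 ± 0.07). The groups were well apart for both. Atp2a2 was lower than wild-type sham (-0.51, adjusted p = 0.0066) and Ryr2 was not called (-0.23, adjusted p = 0.06). Hrc, a calcium buffer beside the channel, fell (-0.48 ± 0.10), as did its anchor Trdn (-0.29 ± 0.06), both also against wild-type sham. Pln, the inhibitor of the pump, was not called (1552, 1679 and 1662 and 1407, 1294 and 1278 CPM; -0.30 ± 0.11, adjusted p = 0.066). The rise was in the membrane calcium pump Atp2b4 (0.46 ± 0.08). For 12 of the 25 the change was more positive in T497A than in wild type and for 4 more negative (6 and 7 with scaling by library totals), with Atp2a2 at 0.58, adjusted p = 0.0064 and Pln at 0.72, adjusted p = 0.0037.

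Potassium and sodium channel genes fell for 12 of 25 and rose for 0 (median -0.31), with 6 falls without T497A sham 2 and 7 without T497A TAC 2, and 5 against wild-type sham. Kcnj3, a subunit of the acetylcholine-gated potassium channel, went from 155, 159.8 and 158 to 85.5, 78.2 and 76.9 CPM (-0.97 ± 0.06, adjusted p = 2.9e-07). Kcnk3, a background potassium channel, went from 325, 379 and 364 to 235, 247 and 256 CPM (-0.53 ± 0.09), and Kcnh2, which carries the rapid repolarising current, changed by -0.60 ± 0.12. The silent subunit Kcnv2 fell by 1.47 log2 units (SE 0.29). Kcnj3 and Kcnk3 were lower than in wild-type sham (-0.57 and -0.34), and Kcnh2 and Kcnv2 were not called (-0.22, adjusted p = 0.27 and -1.002, adjusted p = 0.053).

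Of 25 genes of the adult sarcomere 4 rose and 6 fell (median 0.00), and 3, 2 and 3 fell without T497A sham 3, TAC 1 and TAC 2. Synpo2l, a Z-disc protein, had the largest rise, from 130.4, 169.7 and 145 to 332, 338 and 332 CPM (1.17 ± 0.09, adjusted p = 9.3e-07). The M-line proteins Myom1 and Myom2 rose by 0.38 ± 0.07 and 0.71 ± 0.16, and the thick filament regulator Mybpc3 by 0.37 ± 0.07. Synpo2l and Mybpc3 were higher than in wild-type sham (0.74 and 0.25), Myom1 and Myom2 were not called (0.18 and 0.27). Troponin I, Tnni3, fell from 4773, 4628 and 4925 to 3282, 3189 and 3467 CPM (-0.53 ± 0.11) and was lower than in wild-type sham (-0.38, adjusted p = 0.039). The adult myosin Myh6 stood at 33322, 31947 and 31228 CPM after sham and 24362, 24100.0 and 25984 CPM after TAC, all TAC libraries below all sham libraries (-0.37 ± 0.10, adjusted p = 0.015). Myh6 was not called without T497A sham 1 or TAC 1 or 2 (adjusted p = 0.051 to 0.065), and its wild-type TAC mean was 13954 CPM (interaction 0.75, adjusted p = 0.0014).

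Prkca itself, the gene that carries the mutation (chromosome 11, 107933387 to 108343928, minus strand, GRCm38), stood at 35.7, 34.7 and 31.1 CPM after sham and 50.3, 44.7 and 43.6 CPM after TAC (0.45 ± 0.07, adjusted p = 0.0005). T497A TAC lay at the wild-type sham level (44.4 CPM; 0.06, adjusted p = 0.67). Counts per gene do not show a single changed base, so this value is no check of the labels. Of 35 genes of adrenergic, Gq and protein kinase C signalling 7 rose and 6 fell (5 and 2 against wild-type sham). Plcb1, the phospholipase that makes the lipid activator of the kinase, rose from 5.75, 8.16 and 7.14 to 12.8, 12.1 and 12.02 CPM (0.81 ± 0.11), and the related kinase Prkcb by 1.01 ± 0.24. The angiotensin receptor Agtr1a rose (0.66 ± 0.13), the angiotensin-converting enzyme Ace rose (0.56 ± 0.10), and the endothelin receptor Ednra fell from 82.4, 67.5 and 86.2 to 31.3, 38.96 and 42.4 CPM (-1.07 ± 0.13). Grk5, a kinase that desensitises receptors, went from 72.4, 67.6 and 72.6 to 45.9, 50.02 and 43.6 CPM (-0.61 ± 0.07), and the adenylyl cyclases Adcy5 and Adcy6 fell by 0.55 and 0.71 log2 units. Rgs2, which shortens Gq signals, fell by 1.37 log2 units (SE 0.25). Against wild-type sham Plcb1 (0.41), Ace (0.59) and Adcy6 (-0.38) were called. Prkcb, Agtr1a, Ednra, Adcy5 and Rgs2 were not, at 0.66, 0.29, -0.21, -0.23 and -0.66. Nor was Grk5, whose sign turned (0.02, adjusted p = 0.88), and in wild type Grk5 rose with TAC (1.04).

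Of 27 protein folding and stress sensor genes of the endoplasmic reticulum 11 fell and 1 rose (7 and 0 against wild-type sham). The main chaperone Hspa5 went from 729, 728 and 744 to 390.0, 457 and 491 CPM (-0.72 ± 0.08, adjusted p = 1.8e-05), and Herpud1, of the pathway that disposes of misfolded protein, from 531, 438 and 508 to 177, 178 and 202 CPM (-1.41 ± 0.10, adjusted p = 8e-07). Calr fell by 0.50 log2 units (SE 0.06). All were lower than in wild-type sham, Hspa5 by -0.50, Herpud1 by -0.66 and Calr by -0.39. The rise was in Edem1 (0.44, adjusted p = 0.024), which was not called without T497A sham 1 or 3 or TAC 2 or 3 (adjusted p = 0.066 to 0.1). Targets of the stress factor ATF4 and serine synthesis genes rose for 9 of 25 and fell for 2 (5 rose without T497A TAC 2, and 7 and 1 were called against wild-type sham). Psat1, of serine synthesis, rose by 0.75 ± 0.17, whereas Chac1, which degrades glutathione, fell (-1.69 ± 0.31), as did the mitochondrial folate enzyme Aldh1l2 (-0.89 ± 0.11). Chac1 was not called against wild-type sham (-0.83, adjusted p = 0.11). Of 50 cytosolic ribosomal protein genes 20 fell and 2 rose, the falls numbering 11 to 13 without T497A sham 1, sham 3 or any TAC library and 10 with scaling by library totals. Against wild-type sham 1 of the 50 was lower and 0 higher: Rpl3l, the form of striated muscle, which went from 333, 307 and 323 to 170.4, 163 and 178 CPM (-0.91 ± 0.08, and -0.58, adjusted p = 0.00074 against wild-type sham). The 2 rises were Rpl3 (0.20, adjusted p = 0.03), which was not called without T497A sham 1, 2 or 3 or TAC 1 or 2 (adjusted p = 0.058 to 0.12), and Rpl26.

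Some genes with large falls had a T497A sham level well above that of wild-type sham. Zbtb16, a transcription factor induced by glucocorticoids, went from 308, 301 and 257 to 36.9, 57.9 and 72.9 CPM (-2.37 ± 0.25, adjusted p = 0.00018). Fkbp5, the feedback chaperone of that receptor, went from 115, 115 and 106 to 15.7, 33.6 and 40.1 CPM (-1.91 ± 0.32). For both, TAC 1 was the lowest library of all 6. The wild-type sham means were 138 and 35.1 CPM, so Zbtb16 was called from there (-1.30, adjusted p = 0.012) and Fkbp5 was not (-0.24, adjusted p = 0.71). Metallothionein Mt1 went from 367, 240.3 and 295 to 118, 124 and 133 CPM (-1.26 ± 0.17), the glutathione transferase Gsta3 from 16.97, 16.8 and 20.02 to 4.11, 4.4004 and 4.25 CPM (-2.07 ± 0.16) and the uncoupling protein Ucp2 from 265, 115 and 230.1 to 66.4, 70.1 and 69.3 CPM (-1.57 ± 0.27). None of Mt1 (-0.10), Gsta3 (-0.47) and Ucp2 (0.16, with the sign turned) was called against wild-type sham. Of 27 antioxidant genes 10 fell and 3 rose, or 7 and 2 from wild-type sham. The rises were small, in Mgst1 (0.36 ± 0.08, with the sign turned from wild-type sham at -0.44, adjusted p = 0.0037), Gpx1 (0.30 ± 0.06) and Sod3 (0.31), and Sod3 was not called without T497A sham 1 or 3 or TAC 1, 2 or 3 (adjusted p = 0.059 to 0.17), with 0.20 without T497A sham 1. Thyroid hormone receptor Thrb fell (-0.68 ± 0.08) and the activating deiodinase Dio2 rose (1.68 ± 0.31), both also against wild-type sham (-0.48 and 1.19).

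Cytoskeleton and junction genes rose for 12 of 34 and fell for 5 (7 and 3 against wild-type sham), with 3 falls without T497A sham 2 or TAC 2. The 3 largest falls were all tubulins, the building blocks of microtubules. Tuba4a went from 644, 657 and 613 to 335, 311 and 314 CPM (-0.99 ± 0.08), Tuba8 from 184, 194 and 218 to 69.9, 75.5 and 82.7 CPM (-1.39 ± 0.11) and Tubb4b from 225, 204 and 203 to 85.8, 101 and 102 CPM (-1.13 ± 0.10). They were as clearly lower against wild-type sham (-1.20, -1.10 and -0.93). The other falls were in the desmosome protein Dsg2 (-0.35), which was not called without T497A sham 1 or 2 or TAC 2 or 3 (adjusted p = 0.056 to 0.096), and in Itgb1bp2, which binds an integrin (-0.31) and was not called without T497A sham 2 or 3 or TAC 1 or 2 (adjusted p = 0.061 to 0.085). The neuronal tubulin Tubb3 rose (1.57 ± 0.19) from under 1 CPM, and was not called from wild-type sham (0.56, adjusted p = 0.069). Gja1, the gap junction protein connexin 43, went from 218, 272 and 268 to 546, 479 and 408 CPM (0.92 ± 0.10), near the wild-type sham mean of 427 CPM (0.16, adjusted p = 0.34). The junction protein plakoglobin, Jup, rose by 0.49 ± 0.06, and by 0.21 from wild-type sham.

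Of 24 heat shock genes 3 rose and 3 fell (1 and 2 against wild-type sham), near the shares of all genes, 12.9% and 11.4%. The rises numbered 7 without T497A TAC 1, and 1 without T497A sham 1, TAC 2 or TAC 3. The falls numbered 5 without T497A sham 2 and 6 without T497A TAC 3. The small heat shock protein Hspb6 rose by 0.57 ± 0.08, and the mitochondrial chaperone pair Hspd1 and Hspe1 fell by 0.29 and 0.34 log2 units. Hspa1b, the inducible form (1.89, 1.36 and 2.15 CPM after sham and 2.03, 15.6 and 29.7 CPM after TAC), overlapped between the groups and was not called without T497A sham 1, 2 or 3 or TAC 2 or 3 (adjusted p = 0.087 to 0.12). Of 20 clock genes 2 rose and 4 fell (1 and 2 against wild-type sham), with Bhlhe40 at 0.83 ± 0.10 and Cry1 at -0.74 ± 0.15. Cry1 was not called against wild-type sham (-0.24, adjusted p = 0.33). Of 26 cardiac transcription factors 3 rose and 3 fell, near the shares of all genes, 12.9% and 11.4%. They were Meox1, Sox9 (0.98 ± 0.21) and Gata4 (0.37 ± 0.06) on one side and Zbtb16, Tbx5 and Nkx2-5 (-0.30 ± 0.06) on the other. Gata4 was not called against wild-type sham (0.11, adjusted p = 0.27). Of 19 thyroid and steroid hormone genes 4 rose and 7 fell, or 1 and 3 against wild-type sham, and the rises numbered 2 without T497A sham 2, sham 3, TAC 1 or TAC 2. Complement and coagulation genes rose for 5 of 26 and fell for 3 (4 and 1 against wild-type sham), with 1 fall without T497A sham 1 or TAC 2. The complement factor C7 rose by 1.99 ± 0.25 and the plasminogen activators Plat and Plau by 0.79 ± 0.09 and 0.87 ± 0.18, while tissue factor, F3, fell (-0.59 ± 0.16). C7 and Plau were not called against wild-type sham (0.12, adjusted p = 0.81 and 0.26, adjusted p = 0.38). F3 was not called without T497A sham 1 or 3 or TAC 2 or 3 (adjusted p = 0.0502 to 0.074), and not against wild-type sham (-0.41, adjusted p = 0.12). Of 32 lysosome and autophagy genes 5 rose and 8 fell (2 and 4 against wild-type sham). With 1 library left out the rises numbered 1 to 3, the lowest without T497A TAC 1, and the falls numbered 4 without T497A TAC 2. Among the falls was the lysosomal regulator Tfeb (-0.35 ± 0.08), which was not called against wild-type sham (-0.17, adjusted p = 0.22). Of 36 interferon-stimulated and antigen presentation genes 2 rose and 0 fell, but 13 rose without T497A sham 1 and 0 without T497A sham 2, sham 3, TAC 2 or TAC 3. The summed level of this list was 2480 CPM in T497A sham 1, 1010 and 1230 CPM in T497A sham 2 and 3, and 1250 to 1480 CPM after TAC. Against wild-type sham 1 was higher and 0 lower. Mx1 (1.70) was not called without T497A sham 2 or 3 or TAC 2 or 3 (adjusted p = 0.063 to 0.084), and Isg15 (0.91) was not called without T497A sham 2 or 3 or TAC 2 or 3 (adjusted p = 0.074 to 0.088). Of 21 markers of lymphocytes and granulocytes 2 rose and 2 fell, near the shares of all genes. Each of the 4 calls was lost without 1 or more libraries: the B cell gene Ms4a1 (1.47) was not called without T497A sham 1 or 2 or TAC 2 or 3 (adjusted p = 0.051 to 0.12), and the T cell gene Trac (-1.24) was not called without T497A TAC 2 (adjusted p = 0.056). Against wild-type sham none of the 21 was called, and their summed level was 10.6 to 12.6 CPM after sham and 10.9 to 13.3 CPM after TAC. Conduction system and nerve genes fell for 7 of 16 and rose for 0, with 2 to 4 falls without T497A sham 3 or any TAC library and 1 against wild-type sham, Cntn2 (-1.05, adjusted p = 0.0072).

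Markers of other tissues moved with these groups. Of 15 atrial muscle genes 8 fell and 1 rose (2 and 1 against wild-type sham), the falls numbering 5, 4, 4 and 5 without T497A sham 3, TAC 1, TAC 2 and TAC 3. The summed level of the list was 1400, 1520 and 2320 CPM in T497A sham 1, 2 and 3 and 1570, 1820 and 1260 CPM in TAC, where Nppa and Kcnk3 weigh most. The atrial light chain Myl7 stood at 63.6, 74.4 and 261 CPM after sham and 9.699, 12.8 and 9.47 CPM after TAC, Myl4 at 72.5, 77.1 and 324 and 11.8, 16.5 and 11.6 CPM, and sarcolipin, Sln, at 10.97, 15.8 and 68.6 and 1.49, 2.62 and 2.52 CPM. In each of these T497A sham 3 was more than 3 times as high as the other sham libraries, and the TAC libraries were below all. Mybphl, an atrial myosin-binding protein (5.23, 7.71 and 30.5 and 1.06, 1.62 and 1.26 CPM), and the channel regulator Fgf12 (1.57, 1.995 and 6.84 and 0.471, 0.723 and 0.801 CPM) followed the same order. Myl7 (-3.64 ± 0.96) was not called without T497A sham 3 or TAC 1, 2 or 3 (adjusted p = 0.08 to 0.087). Myl4 (-3.56 ± 0.92) was not called without T497A sham 3 or TAC 1, 2 or 3 (adjusted p = 0.071 to 0.082). Sln (-3.85 ± 1.03) was not called without T497A sham 3 or TAC 1, 2 or 3 (adjusted p = 0.082 to 0.094). Mybphl (-3.46 ± 0.88) was not called without T497A TAC 1, 2 or 3 (adjusted p = 0.069 to 0.078), with -2.30 without T497A sham 3. Fgf12 (-2.38 ± 0.60) was not called without T497A TAC 1 or 2 (adjusted p = 0.053 to 0.064), with -1.42 without T497A sham 3. Tbx5, a transcription factor of atria and ventricle, fell by 1.04 log2 units and was called whichever library was left out, but not against wild-type sham (-0.44, adjusted p = 0.19). The 1 rise in the list was Nppa. Bmp10, a defining atrial hormone gene, did not pass the filter. The part of atrial tissue in these values, and in that of Nppa, was not tested.

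Adipocyte genes were low. Of 19 genes of epicardium, fat and blood 2 rose (the epicardial factor Wt1 and Hba-a2) and 6 fell, but 0 to 3 fell without T497A sham 2, sham 3 or any TAC library and 0 against wild-type sham. The rise of Hba-a2 was not one of haemoglobin transcripts together. Their sum took 0.02601, 0.02845 and 0.02759% of counts after sham and 0.01939, 0.0231 and 0.02563% after TAC. Wt1 (0.70) was not called without T497A sham 1, 2 or 3 or TAC 2 or 3 (adjusted p = 0.055 to 0.15), with 0.41 without T497A TAC 3. Adiponectin, Adipoq, stood at 0.686, 1.74 and 1.997 CPM after sham and 0.0607, 0.215 and 0.0572 CPM after TAC, the droplet protein Cidec at 0.8002, 1.58 and 5.43 and 0.121, 0.215 and 0.172 CPM, and Plin1 at 0.849, 1.45 and 3.66 and 0.0607, 0.40003 and 0 CPM. Sham 3 was the highest library for all of them. Pck1, of glyceride synthesis in fat, fell from 2.32, 1.25 and 5.96 to 0.0607, 0.154 and 0.0572 CPM (-5.11 ± 1.004, adjusted p = 0.0045), with no call against wild-type sham (-2.55, adjusted p = 0.15). Adipoq (-3.72 ± 1.05) was not called without T497A sham 2 or 3 or TAC 1 or 3 (adjusted p = 0.056 to 0.095). Cidec (-3.93 ± 1.10) was not called without T497A sham 3 or TAC 1, 2 or 3 (adjusted p = 0.08 to 0.099). Plin1 (-3.70 ± 1.17) was not called without T497A sham 2 or 3 or TAC 1 or 3 (adjusted p = 0.069 to 0.14), and moved to -5.98 without T497A TAC 2. The summed level of this list was 345 to 392 CPM after sham and 259 to 335 CPM after TAC.

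Large changes were looked for among autosomal genes whose 6 libraries averaged 1 CPM or more and did not overlap between sham and TAC. Of the 15 largest rises 8 were genes of the cell cycle. Pimreg, Iqgap3, Mxd3, Kif2c, Cep55, Pbk, Bub1 and Ckap2 rose by 3.08 to 3.61 log2 units, and each was called against wild-type sham, by 1.46 to 2.83. Hba-a2, an adult globin gene with a near-identical copy, went from 0, 0.0609 and 0.0666 to 6.36, 7.77 and 7.61 CPM (7.34 ± 1.39). Wild-type sham stood at 6.36, 6.92 and 5.83 CPM for Hba-a2, the level of T497A TAC, and the estimate from there was 0.19, adjusted p = 0.93. The largest falls included several transcripts of this kind. Gpr179, a receptor of the retina, went from 8.43, 8.85 and 13.6 to 0.0455, 0.462 and 0.129 CPM (-5.60 ± 0.60, adjusted p = 0.00011), and its wild-type sham mean was 0.138 CPM. In wild-type TAC its mean was 4.58 CPM. Selenbp2 went from 3.005, 2.803 and 2.397 to 0.0607, 0.108 and 0.0286 CPM (-5.35 ± 0.43) with a wild-type sham mean of 0.0872 CPM. The enolase copy Eno1b (-3.72 ± 0.39), Abhd1 (-3.70 ± 0.57), the calcium channel subunit Cacng6 (-2.81 ± 0.23) and Igsf23 (-2.66 ± 0.43) also fell from a raised T497A sham level and were not called against wild-type sham (0.82, -0.35, -0.31 and -0.12). Tmprss13 fell against both (-3.18 ± 0.35 and -1.66, adjusted p = 0.011). Tmem163 (0.8002, 1.46 and 5.61 and 0.212, 0.492 and 0.229 CPM; -3.07 ± 0.88) was not called without T497A sham 3 or TAC 1, 2 or 3 (adjusted p = 0.061 to 0.11), with -1.86 without T497A sham 3. Rpl26 is of this kind among the rises, at 31.6, 33.7 and 35.5 CPM after sham, 104, 98.9 and 107 CPM after TAC and a mean of 111 CPM in wild-type sham (1.62 ± 0.25, and -0.11, adjusted p = 0.84 from wild-type sham). Genes with near-identical copies are uncertain, since the handling of reads that map to several places is not given in the sources used here.

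**Figure D4:**
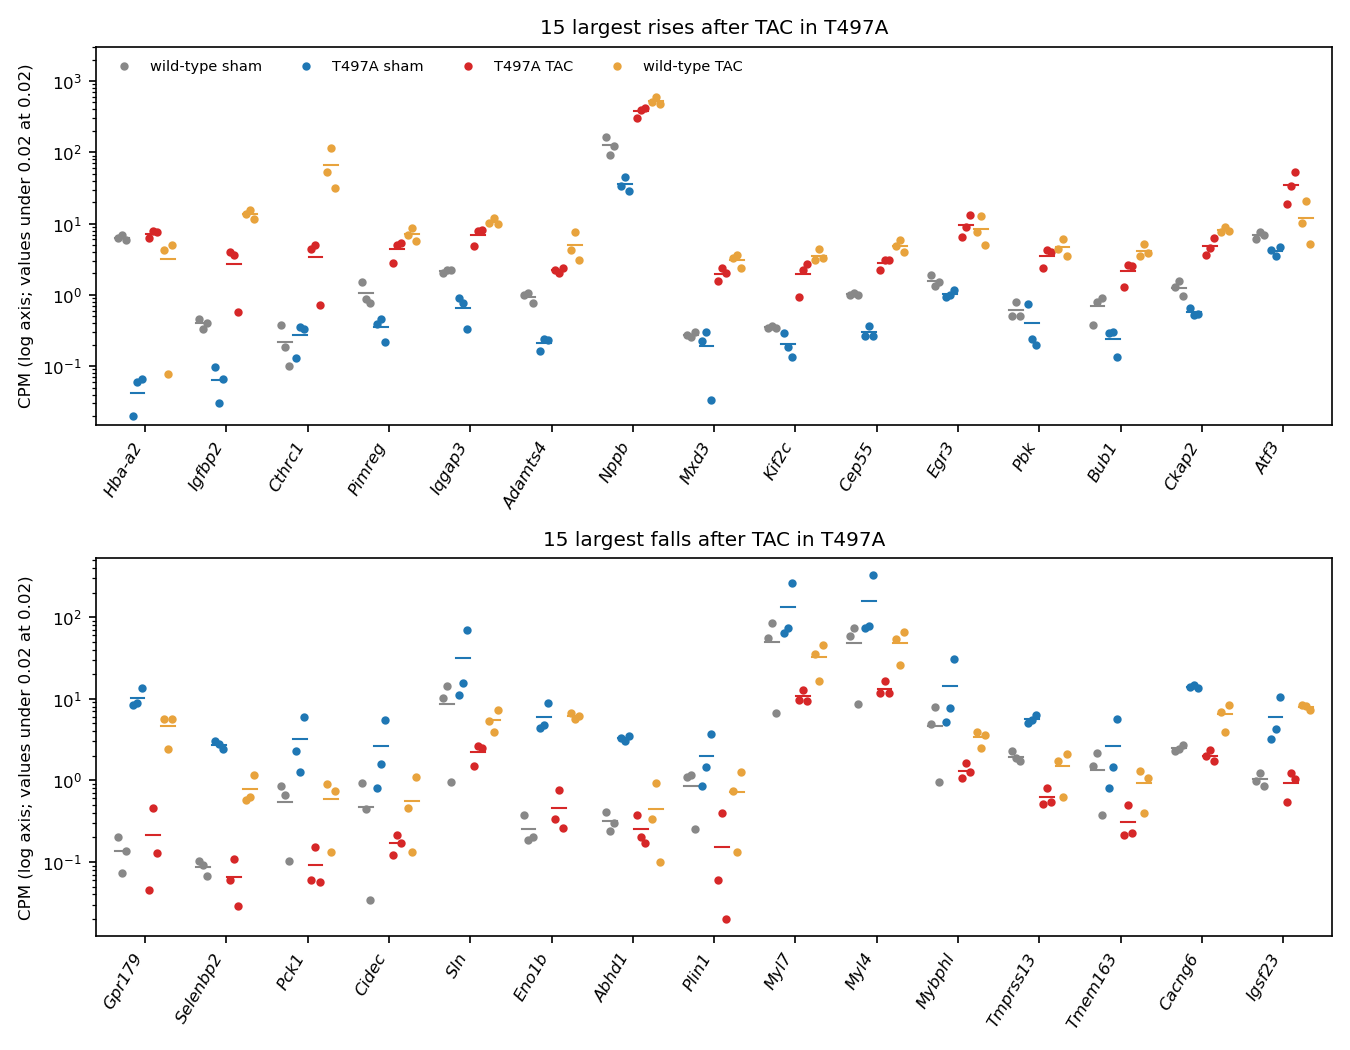
Points are libraries and short lines group means (CPM, log axis, values under 0.02 drawn at 0.02) for the 15 largest rises (top) and falls (bottom) from T497A sham (blue) to T497A TAC (red), beside wild-type sham (grey) and wild-type TAC (orange). For Hba-a2, Gpr179, Selenbp2, Eno1b and Abhd1 the grey points lie with the red ones, and for Myl7, Myl4, Sln and Tmem163 1 blue point lies far above the other 2.

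Over all changes of at least 4-fold, wild-type sham lay nearer to T497A TAC than to T497A sham (ratio of mean CPM + 0.1) for 76 of 213 rises and for 139 of 168 falls. Chromosome 11, which carries Prkca, held 52 of the 381 such genes (13.6%, against 7.97% of the genes tested), so that 3.69% of its 1410 genes tested changed at least 4-fold. On the other autosomes this share ran from 0.914 to 3.15%. Of the 52, wild-type sham was nearer to T497A TAC for 37. They lay along the whole chromosome, from Myl7 (102.0 Mb below the lower coordinate of Prkca) to Birc5 (9.9 Mb above it). Against wild-type sham 4 genes of chromosome 11 differed at least 4-fold. Of the 381 genes 275 were protein-coding and 55 pseudogenes, a share of 14.4% where pseudogenes made up 4.97% of the genes tested.

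**Figure D5:**
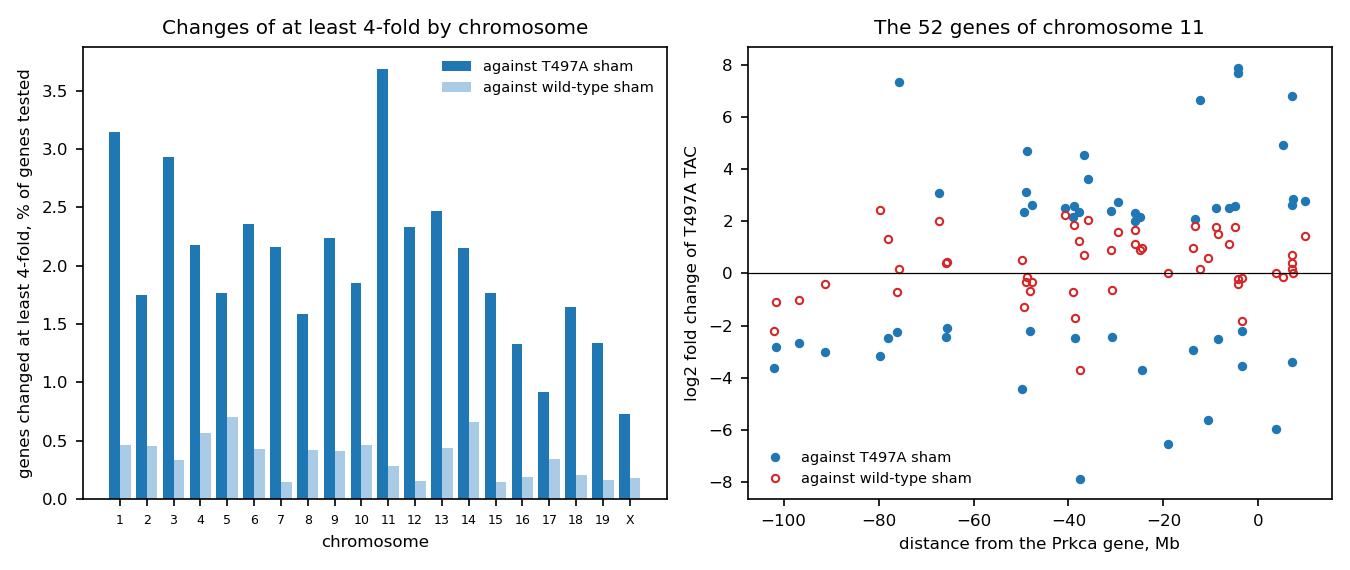
On the left, bars give the percentage of genes tested on each chromosome that changed at least 4-fold from T497A sham (dark) or wild-type sham (pale) to T497A TAC. Chromosome Y and the mitochondrial genome are left out, and of those shown chromosome 11 is highest at 3.69% against T497A sham. On the right, the 52 genes of chromosome 11 are placed by distance from the lower coordinate of Prkca, and their log2 fold changes from T497A sham (filled) are mostly nearer to 0 from wild-type sham (open).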

How the data were processed

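RNA from 12 left ventricle samples was measured as RNA-seq. The authors deposited raw counts per gene, 1 column per library. The submitters' processing notes name Trim Galore 0.6.4, STAR 2.7.3a, featureCounts (Subread 1.6.3), limma 3.50.3 and the builds mm10 and GRCh38. For the annotation release, strand setting and multi-mapping reads no setting is given in the sources used here. All 55401 identifiers are of mouse.

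Samples were grouped by their labels, in which 2 T497A sham columns write 497A. Genes were kept by edgeR's filterByExpr (17699) and fitted with edgeR 4.0.16 (R 4.3.3, TMM scaling, robust quasi-likelihood F-test, Benjamini-Hochberg adjustment, 4 group means over 12 libraries). CPM use TMM-scaled library sizes. Alternatives were DESeq2 1.42.0, limma-voom (limma 3.58.1), other scalings and filters, wild-type sham as the reference and leaving out each library. Same-numbered sham and TAC libraries did not deviate together (r of -0.031, 0.0274 and -0.0197), so numbers were not used as pairs. Of the identifiers 54349 matched GENCODE M21 and a further 792 did without the version. Promoters came from RefSeq (GRCm38.p6), and those of chromosome 18 were left out. Scripts were tested on simulated data.

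Members, lists and tests were chosen with earlier results of these data known. Named genes are 16 set genes, the 15 largest rises and falls (autosomal, mean of at least 1 CPM, no overlap), the 5 largest interactions in each direction and up to 6 called members per list with the smallest p. Others were named for their role, or because few members were called, after their values were seen. The values of 2 genes that this rule or a list holds are not reported here, and counts include them. Wild-type sham was taken as a second reference because of the sex-linked transcripts.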

Additional observations from a re-analysis of the deposited data

Results flagged for a closer look

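Each result here was singled out because the change with TAC differed between T497A and wild type by the test of the interaction (T497A change minus wild-type change, log2, edgeR's quasi-likelihood test). In all 5218 genes did so. The test uses the T497A sham libraries, so their difference in sex-linked transcripts cannot be told apart from the interaction. The wild-type libraries enter the test too, with the limit at autosomal transcripts given in the Results. Scaling by library totals moved the median interaction of all genes from -0.01 to -0.31, so positive values near that size, such as that of Ryr2, come close to 0 under it. The peptide genes went apart, with Nppa at -3.69 and Nppb at 1.31. Nppa rose in all 3 wild-type TAC libraries to 2579, 2793 and 2415 CPM. For the matrix genes the T497A change was less positive, at -2.58 for Col1a1, -1.62 for Col3a1, -3.04 for Postn and -2.42 for Ccn2. For muscle genes that fell in wild type the T497A change was less negative, at 0.75 for Myh6, 0.58 for Atp2a2, 0.72 for Pln, 0.31 for Ryr2 and 1.00 for Cpt1b. Within T497A the changes of Ccn2, Pln and Cpt1b were not called. Ankrd1, which rose in both, stood at 0.65. For Nppb and Ankrd1 T497A sham was the lowest group, so these positive values alone do not give a higher level after TAC than in wild type.

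Large interactions belonged to genes that differed between the sham groups or spread within a group. In some of them wild-type TAC stood apart from wild-type sham as well. Mean levels in wild-type sham and wild-type TAC were 0.138 and 4.58 CPM for Gpr179 and 4.66 and 1.11 CPM for Drc3. The interactions (log2) were 8.36 for Hba-a2, 4.70 for Drc3 and 4.76 for Rab6b. In the other direction they were -10.63 for Gpr179, -8.51 for Selenbp2, -8.31 for Eno1b and -5.71 for Pianp. Capn11, at 8.47, had 0, 0.0305 and 0.333 CPM in T497A sham and 0.364, 1.88 and 3.61 CPM in T497A TAC, against means of 0.423 and 0.0172 CPM in wild-type sham and TAC. Adgrf3, at -15.97, had 51.4, 0.564 and 0.383 CPM in T497A sham, so that 1 library carried nearly all its counts, and 0.0607, 0.0615 and 0 CPM in T497A TAC. Rab6b had 9.24, 2.35 and 1.53 CPM in T497A sham and 21.9, 17.02 and 17.5 CPM in T497A TAC. Its rise of 2.11 ± 0.56 was not called without T497A sham 2 or TAC 1, 2 or 3 (adjusted p = 0.055 to 0.074), and was 3.27 without T497A sham 1. Fitted values of genes near 0 in a group depend on the small count that the fit adds.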

How the results depend on the processing

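The total of 4315 genes called was 3884 to 5478 under 11 other settings of scaling, filter, test or samples, 2840 to 3650 with 1 T497A library left out (the lowest without T497A TAC 2), and 1773 with wild-type sham as the reference. Rises numbered 2290, with 2090 to 2770 under those settings, 1589 to 1985 with a library left out and 1083 against wild-type sham. Falls numbered 2025, with 1692 to 2708, 1251 to 1665 (lowest without T497A TAC 2) and 690. The interaction count of 5218 was 4701 to 6869 and, with 1 of 12 libraries left out, 4394 to 5283. DESeq2 called 5000 genes and limma-voom 5478. With the replicate number as a block, for samples that share only a number, 4021 genes were called. Of the 241 called genes named in the text 128 kept their call and direction under every alternative, and 68 changed only with wild-type sham as the reference. In that comparison the sign was turned for Rpl26 (-0.109), Grk5 (0.022), Ucp2 (0.16), Gpr179 (0.59), Eno1b (0.819), Ddx3y (-0.186), Cdkn1a (0.806), Kdm6a (0.00989), Fhl1 (0.0961), Ppargc1b (-0.22), Ccl21a (0.314), Steap4 (-0.0263), Mgst1 (-0.437), Ms4a1 (-0.246), Smad6 (0.094) and Drc3 (-0.32). The wild-type sham comparison differs in genotype as well as surgery, and the cause of these differences was not tested. Genes under 1 CPM rest on few counts even at these depths.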
